A study of Caenorhabditis elegans with 16 samples.

Results

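The receptor guanylyl cyclase genes known from the ASE taste neurons were followed through a single-cell atlas of the larval nervous system of the nematode Caenorhabditis elegans. The set was named by gene and held 10 of the 18570 genes measured: gcy-1, gcy-3, gcy-4, gcy-5, gcy-6, gcy-7, gcy-14, gcy-19, gcy-20 and gcy-22. All 10 were present in the count table. The atlas held 151415 cells in 16 libraries of fluorescence-sorted cells, 89073 of them annotated as neurons. Transcripts were counted by unique molecular identifiers (UMIs), and 261228334 UMIs were counted in all.

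Receptor guanylyl cyclases are single-pass membrane proteins with an extracellular ligand-binding part and an intracellular domain that makes cyclic GMP, which opens cyclic nucleotide-gated channels in sensory cilia. The left ASE neuron (ASEL) and the right one (ASER) sense different salt ions, and the selector factor CHE-1 specifies both. A regulatory loop that includes DIE-1 and LIM-6 on the left and COG-1 on the right makes them differ in the receptor cyclases they use. Of the genes studied here, gcy-7 and gcy-5 are the standard reporters of ASEL and ASER. gcy-14 and gcy-6 have been linked to sodium and magnesium sensing on the left. gcy-22, gcy-1 and gcy-4 have been linked to salt sensing on the right.

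ASEL and ASER were taken as the authors' annotation labels them, in 1189 cells. ASER cells numbered 924 and ASEL cells 265, which was 22.3% of ASE cells (exact 95% interval 19.95 to 24.8%). Most of these cells, 89.1%, came from 2 libraries of live L1 hermaphrodites. A sensory sort (strain PS9221, syIs764, GFP driven by the tax-4 and ocr-2 promoters, aged 14 to 16 h after hatching) gave 145 ASEL and 542 ASER cells. A sort of glutamatergic neurons (strain OH9625, otIs292, eat-4::mCherry with rol-6(su1006), 12 to 15 h) gave 74 and 298. The pan-neuronal sort (strain OH10689, otIs355, nuclear tagRFP from a rab-3 promoter, 11.5 to 14.5 h) gave 17 and 24 cells in replicate 1 and 13 and 18 in replicate 2. ASEL made up 41.5% (26.3 to 57.9%) and 41.9% (24.5 to 60.9%) of ASE cells in the pan-neuronal libraries, against 21.1% (18.1 to 24.4%) in the sensory sort and 19.9% (16.0 to 24.3%) in the eat-4 sort, although an animal has 1 neuron of each side.

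A further 3 libraries held at least 10 ASE cells. A sort of unc-86 neurons (kyIs262, unc-86::myr-GFP with odr-1::RFP, 12 to 15 h) held 5 cells on each side. Another combined strains carrying reporters of ceh-10, nlp-13, mec-3 and unc-47 (uIs152, EG1285 with lin-15B&lin-15A(n765), OH16003 and ZM5488, 13.5 to 17 h) and held 14 ASER cells and no ASEL cell. The third combined strains with unc-4c, ceh-2 and acr-2 reporters (NC3523, PS3504 with unc-119(ed4), and CZ631, 13 to 17 h) and held 7 ASEL and 12 ASER cells. All these animals were given the genotype wild type. No reporter was driven by a promoter of the 10 genes.

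ASE cells were shallow. The median was 435 UMIs per ASEL cell and 388 per ASER cell, and 59.0% of ASE cells held fewer than 500. In all, ASEL cells summed to 186346 UMIs and ASER cells to 585106. Levels are given as CPM, the UMIs of a gene scaled to the total of its class, with exact Poisson 95% intervals, which cover counting error only. Counts were not divided by gene length, so each gene is compared with itself across cells and not with other genes. How the authors assigned the side labels is not given in the sources used here, and the same counts may have been used for it. A test of left against right therefore measures the spread between libraries given these labels. Of 148627 barcode sequences 2756 occurred in more than 1 library, and 0 were labelled ASE in more than 1.

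The labels were checked against identity genes. che-1, the selector gene, reached 140 CPM in ASEL and 210 CPM in ASER, with all of its UMIs in ASE from the sensory and eat-4 sorts. It was listed at 0 in every cell of the other 14 libraries, both pan-neuronal ones included, so there it cannot check the label. The left regulators lim-6, a LIM homeobox gene, and die-1, a zinc finger gene, stood at 1422 and 317 CPM in ASEL against 0 and 3.42 CPM in ASER. cog-1, the homeobox gene of the right side, stood at 5.37 CPM in ASEL (1 UMI) and 35.9 CPM in ASER (21 UMIs). Its ratio of ASER to ASEL in the sensory sort was 3.38 (0.50 to 144). In the eat-4 sort its bound was 0.59, below 1. Of the other right markers, hen-1 stood at 182 CPM in ASEL and 984 CPM in ASER. nsy-7 stood at 5.37 CPM (1 UMI) and 6.84 CPM (4 UMIs) and did not separate the sides. Defining markers of the AWC, ASG, ASK, ASH, AWB, ADF and IL2 sensory neurons and of intestine and glia were at 0 or 1 UMI on each side, all ASE cells together. Other markers were not. The BAG markers gcy-33 and flp-17 had 18 UMIs in ASEL and 101 in ASER, of which 90 were flp-17 in ASER of the sensory sort. The epidermal markers dpy-7 and rol-6 had 180 and 270 UMIs, nearly all rol-6 in the eat-4 sort (180 in ASEL and 262 in ASER), whose strain carries a rol-6 transgene. The ASI marker daf-7 stood at 243 CPM in ASER and at 0 in ASEL. Of body wall muscle markers, myo-3, unc-54 and tnt-2 together made 208 CPM of ASEL and 137 CPM of ASER in the eat-4 sort, 13018 and 13362 CPM in the sensory sort, 42412 and 20611 CPM in pan-neuronal replicate 1 and 75858 and 50784 CPM in replicate 2. In the pan-neuronal libraries and in ASER of the sensory sort all of this was unc-54, with myo-3 and tnt-2 at 0. In ASEL of the sensory sort unc-54 had 1130 UMIs, tnt-2 2 and myo-3 0. Body wall muscle cells made up 20.3% of the eat-4 sort and 1.76% of the sensory sort. They made up 0.0638% and 0.0624% of pan-neuronal replicates 1 and 2. The source of the unc-54 UMIs, and the part of these markers in the results below, were not tested.

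The left genes were gcy-7, gcy-14, gcy-6 and gcy-20, each with at most 1 UMI in the 924 ASER cells. gcy-7, the ASEL reporter gene, stood at 4604 CPM in ASEL (858 UMIs, 4301 to 4923) and at 1.71 CPM in ASER (1 UMI). In the sensory sort, the eat-4 sort and pan-neuronal replicates 1 and 2, its ASEL level was 4933, 6048, 2840 and 3724 CPM. The sensory sort also held the 1 ASER UMI, and the other 3 libraries were at 0 on the right, so the sides did not overlap in any of the 4. The mean over these libraries was 4386 ± 1401 CPM (SD, n = 4) in ASEL. The pooled ratio of ASEL to ASER was 2694 (482 to 106531), wide because the lower side was a single UMI.

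gcy-14, the receptor linked to sodium, stood at 2066 CPM in ASEL (385 UMIs, 1865 to 2283) and at 0 in ASER. Its ASEL level was 2300 CPM in the sensory sort, 2432 CPM in the eat-4 sort, 947 CPM in pan-neuronal replicate 1 and 2105 CPM in replicate 2, which gave 1946 ± 679 CPM (SD, n = 4). Against a floor of 3 UMIs over all ASER cells, it was at least 403-fold higher in ASEL.

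gcy-6, linked to magnesium, stood at 751 CPM in ASEL (140 UMIs, 632 to 887) and 1.71 CPM in ASER (1 UMI). By library its ASEL level was 1023, 686, 284 and 324 CPM in the same order, so both pan-neuronal libraries were below both other sorts, with 3 and 4 UMIs. gcy-20 stood at 671 CPM in ASEL (125 UMIs, 558 to 799) and at 0 in ASER, at least 131-fold higher in ASEL by the same floor. Its ASEL level by library was 782, 416, 663 and 324 CPM. In the library of unc-4c, ceh-2 and acr-2 strains, which held 7 ASEL cells, gcy-20 reached 1368 CPM (22 UMIs), gcy-7 2673 CPM, gcy-14 1119 CPM and gcy-6 435 CPM, and all 4 were at 0 in its 12 ASER cells.

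**Figure D1:**
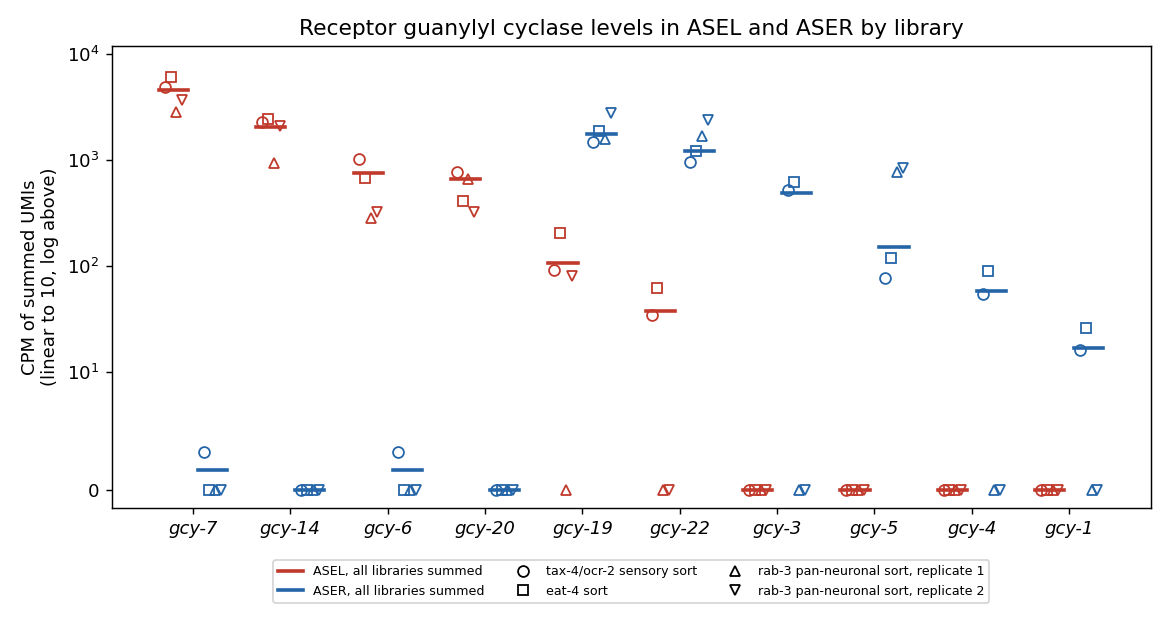
Levels of the 10 genes in CPM (vertical axis, linear to 10 and logarithmic above) in ASEL (red) and ASER (blue); open symbols are the 4 libraries where both sides had 10 or more cells, and bars are all libraries summed. gcy-7, gcy-14, gcy-6 and gcy-20 lie high in ASEL and at or near 0 in ASER, the other 6 genes the other way, and gcy-3, gcy-4 and gcy-1 lie at 0 on both sides in both pan-neuronal libraries while gcy-5 is highest there.

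On the right, gcy-19 and gcy-22 were counted most deeply, and both left a small count in ASEL. gcy-19, a receptor cyclase placed with the right genes here by its level, stood at 1764 CPM in ASER (1032 UMIs, 1658 to 1875) and 107 CPM in ASEL (20 UMIs, 65.6 to 166). In ASER it was 1472 CPM in the sensory sort, 1888 CPM in the eat-4 sort, 1585 CPM in pan-neuronal replicate 1 and 2810 CPM in replicate 2. In ASEL the same libraries gave 92.0, 208, 0 and 81.0 CPM, so no ASEL value reached any ASER value. The ratio of ASER to ASEL was 16.4 over all libraries (10.6 to 27.02). Within libraries it was 16.0 (8.05 to 37.3) in the sensory sort and 9.08 (4.88 to 19.1) in the eat-4 sort, intervals that overlapped. It was 34.7 (6.07 to 1387) in pan-neuronal replicate 2 and at least 5.58 in replicate 1, against a floor of 3 UMIs in that library.

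gcy-22, required for many ASER responses, stood at 1220 CPM in ASER (714 UMIs, 1132 to 1313) and 37.6 CPM in ASEL (7 UMIs). Its ASER level was 971, 1236, 1682 and 2386 CPM in the same 4 libraries, and its ASEL level was 34.5, 62.3, 0 and 0 CPM, without overlap. The ratio of ASER to ASEL was 32.5 (15.7 to 81.1) over all libraries, 28.1 (9.54 to 137) in the sensory sort and 19.8 (6.70 to 96.8) in the eat-4 sort. The 14 ASER cells of the library of ceh-10, nlp-13, mec-3 and unc-47 strains held 46 UMIs of gcy-19 and 41 UMIs of gcy-22 and 0 of the other 8 genes. All of those 8 but gcy-20 were listed at 0 in every cell of that library, so these 7 zeros do not describe ASER. At the rate of the sensory and eat-4 sorts together, gcy-3 would have given 6.35 UMIs there. In the WBcel235 annotation gcy-22 overlaps T03D8.6 on the same strand. T03D8.6 stood at 318 CPM in ASER (186 UMIs) and 0 in ASEL, so reads of these genes may have been split between them.

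The remaining right genes were at 0 in all 265 ASEL cells. gcy-3 stood at 489 CPM in ASER (286 UMIs, 434 to 549), at least 30.4-fold above ASEL against a floor of 3 UMIs over all ASEL cells. gcy-5, the ASER reporter gene, stood at 152 CPM (89 UMIs, 122 to 187) and was at least 9.45-fold higher in ASER. gcy-4, linked to bromide and iodide, stood at 58.1 CPM (34 UMIs, 40.2 to 81.2), at least 3.61-fold higher. gcy-1, linked to potassium, stood at 17.1 CPM (10 UMIs, 8.20 to 31.4), at least 1.06-fold higher, which is close to no bound at this depth.

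The SD of these 4 genes was 112 to 161% of the mean over libraries in ASER, against 31.9 to 59.9% for the other 6 genes on their own side. These SDs include libraries where a gene was listed at 0 in every cell, so they do not describe ASER alone. That held for gcy-1, gcy-3 and gcy-4 in both pan-neuronal libraries. It held for all 4 in the library of ceh-10, nlp-13, mec-3 and unc-47 strains, and for gcy-1 and gcy-4 in that of unc-4c, ceh-2 and acr-2 strains. In CPM the SD of gcy-7, gcy-19, gcy-22 and gcy-14 was larger. gcy-3 was 521 CPM in ASER of the sensory sort, 620 CPM in the eat-4 sort and 443 CPM in the library of unc-4c, ceh-2 and acr-2 strains, and it was at 0 in both pan-neuronal libraries. gcy-4 was 55.0 and 89.4 CPM and gcy-1 16.2 and 26.3 CPM in the sensory and eat-4 sorts, and both were at 0 in the pan-neuronal libraries. gcy-5 was 77.7 and 121 CPM in the sensory and eat-4 sorts and 769 and 850 CPM in pan-neuronal replicates 1 and 2. It was at 0 in the 12 ASER cells of the library of unc-4c, ceh-2 and acr-2 strains. Its mean over 6 libraries with at least 10 ASER cells was 303 ± 396 CPM (SD), and without the sensory sort its pooled level was 235 CPM. The equal-weight mean of gcy-3 over the same 6 libraries was 264 ± 295 CPM (SD). Both means include libraries where the gene was listed at 0 in every cell.

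The zeros of gcy-1, gcy-3 and gcy-4 covered the whole pan-neuronal libraries, in every cell of every class. Of 10129 genes with at least 1000 UMIs in the atlas, 1288 (12.7%) were listed at 0 in pan-neuronal replicate 1 and 1216 (12.0%) in replicate 2, against 117 in the sensory sort and 70 in the eat-4 sort. Whether genes were filtered per library before deposit is not stated. At the rate of the sensory and eat-4 sorts together, gcy-3 would have given 11.6 UMIs in ASER of replicate 1 and 17.1 in replicate 2. gcy-4 would have given 1.42 and 2.08 UMIs and gcy-1 0.417 and 0.613, so the zeros of those genes carry little at this depth. By the same rate gcy-5 would have given 1.96 and 2.88 UMIs, and it gave 16 and 26.

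The gcy-5 UMIs of the pan-neuronal libraries lay in 7 of 24 and 10 of 18 ASER cells, and each of those cells also held gcy-19 or gcy-22. In the sensory sort 21 of 542 ASER cells held gcy-5, and in the eat-4 sort 16 of 298. daf-7, the TGF-beta ligand gene that marks the ASI neurons, was also highest in ASER of the pan-neuronal libraries. In ASER it stood at 1249 and 3170 CPM there, 55.0 CPM in the sensory sort and 10.5 CPM in the eat-4 sort. Between the last 2 sorts its order was the reverse of that of gcy-5. In the pan-neuronal libraries daf-7 lay in 7 and 8 ASER cells, each of which also held gcy-19 or gcy-22. Of these cells 3 and 6 also held gcy-5. str-3, the other ASI marker, was at 0 throughout those libraries. The part of these values, of the unc-54 UMIs and of the genes listed at 0 in the gcy-5 difference was not tested.

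ASER was compared with ASEL within libraries on summed counts, in the 4 libraries where both ASEL and ASER had 10 or more cells (edgeR quasi-likelihood test with library as a block, Benjamini-Hochberg adjustment over all genes). Only 574 genes had enough counts to be tested. Of these 154 (26.8%) were called at an adjusted p under 0.05, with 66 (11.5%) higher in ASER and 88 (15.3%) lower. gcy-1, gcy-3, gcy-4 and gcy-5 did not pass the filter on low counts, and the 6 that did passed through the side where they are high, so their number is no support. All 6 were called.

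On the log2 scale, gcy-7 was lower in ASER by edgeR's fit with a difference of -10.77 (SE 0.54, adjusted p = 3.21e-20), gcy-14 of -10.75 (SE 0.56, adjusted p = 5.08e-19), gcy-6 of -8.14 (SE 0.54, adjusted p = 1.19e-16) and gcy-20 of -8.88 (SE 0.72, adjusted p = 1.51e-13). These sizes depend on how the fit treats a side at or near 0 and are not bounds. gcy-19 was higher in ASER by 3.77 (SE 0.35, edgeR adjusted p = 3.57e-12) and gcy-22 by 4.88 (SE 0.43, adjusted p = 7.06e-13). Each of the 6 lay on its own side in 4 of 4 libraries, as did gcy-5. The sides rest on levels in these same cells, so this describes the libraries and is no separate support. gcy-3, gcy-4 and gcy-1 were higher in ASER in the 2 libraries where they had UMIs. Without the filter, edgeR's adjusted p was 8.07e-12 for gcy-3, 3.85e-08 for gcy-5, 0.0348 for gcy-4 and 0.938 for gcy-1, so gcy-1 was not called.

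**Figure D2:**
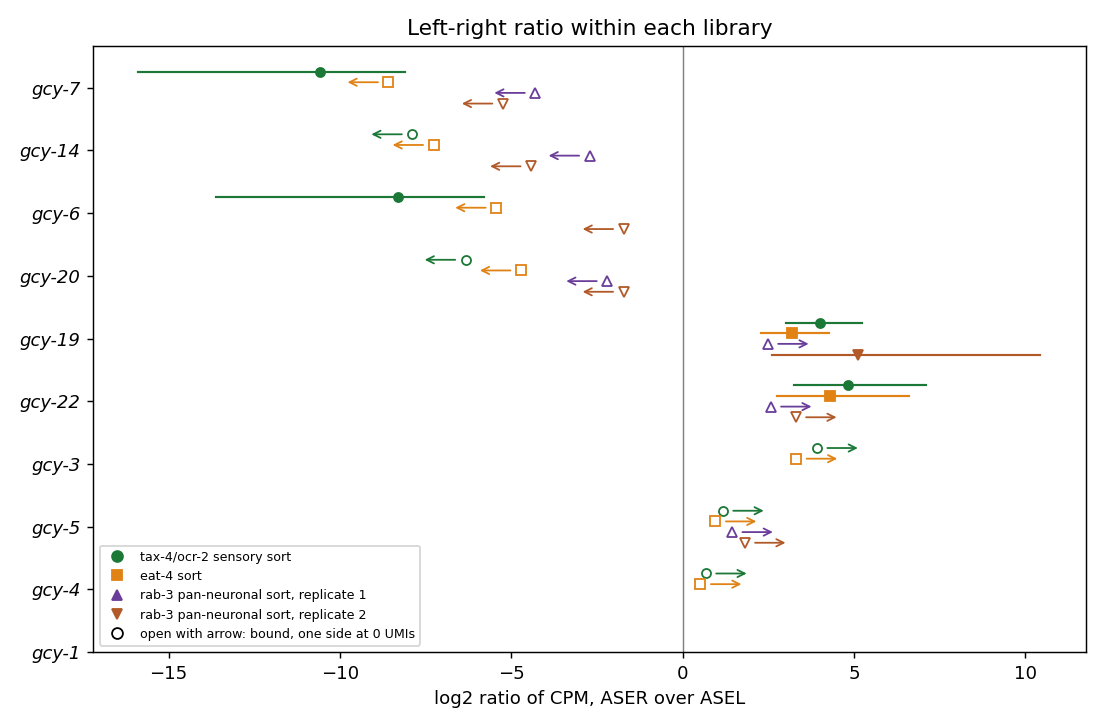
Ratio of the ASER to the ASEL level of each gene within each of 4 libraries (horizontal axis, log2), with exact 95% intervals for filled points; an open symbol with an arrow is a bound against a floor of 3 UMIs in that library on a side at 0. All points drawn of gcy-7, gcy-14, gcy-6 and gcy-20 lie left of 0 and all points drawn of the other genes right of 0. Too few UMIs or none were counted for gcy-6 in pan-neuronal replicate 1, and for gcy-1, gcy-3 and gcy-4 in both pan-neuronal libraries. Bounds below 1-fold were not drawn, which left out gcy-1 in the sensory sort (0.469) and the eat-4 sort (0.422).

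Summed over the genes of each side, the split was close to complete. The sets of left and right genes rest on these same levels, so the split is a description. In ASEL the 4 left genes made 8092 CPM and the 6 right genes 145 CPM, so 98.2% of the UMIs of the 10 genes were of left genes. In ASER the left genes made 3.42 CPM and the right genes 3700 CPM, so 99.9% were of right genes. The share of right-gene UMIs in ASEL was 1.38% in the sensory sort, 2.74% in the eat-4 sort, 0% in pan-neuronal replicate 1 and 1.23% in replicate 2. Of the 27 right-gene UMIs in ASEL, 20 were of gcy-19 and 7 of gcy-22.

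Within single cells the same partition held, with the same sets of genes and so again as a description. Of 1189 ASE cells, 21 held UMIs of both a left and a right gene: 19 labelled ASEL and 2 labelled ASER. Their median was 1108 UMIs, above the 593 UMIs of all cells with any of the 10 genes. A further 411 cells (34.6%) held none of the 10, and their median was 218 UMIs. Doublets were neither removed nor counted here, and their part in the mixed cells was not tested.

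Left genes were found together. gcy-14 shared 119 cells with gcy-7, which was 71.3% of gcy-7 cells and 78.8% of gcy-14 cells. gcy-20 shared 60 cells with gcy-7, which was 83.3% of gcy-20 cells. gcy-6 shared 68 cells with gcy-7, 62 with gcy-14 and 34 with gcy-20. All 4 left genes were counted in 28 ASEL cells, and 62 ASEL cells held 1 of them.

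Right genes were also found together. gcy-19 and gcy-22 shared 216 cells, 49.4% of gcy-19 cells and 67.3% of gcy-22 cells. gcy-3 shared 118 of its 171 cells with gcy-19 (69.0%), and gcy-5 shared 45 of its 54 with gcy-19 (83.3%). gcy-3 and gcy-5, which were high in different libraries, shared 19 cells, all in the sensory and eat-4 sorts. No ASE cell held gcy-5 with any left gene. The most frequent mixed pairs were gcy-7 with gcy-19 in 15 cells and gcy-14 with gcy-19 in 14.

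**Figure D3:**
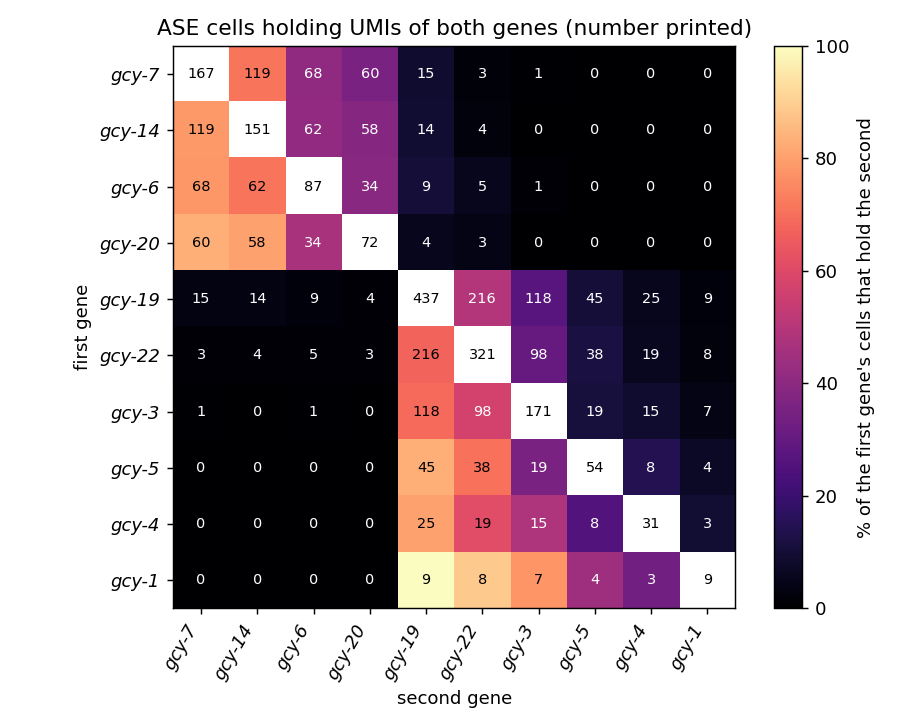
Number of ASE cells with at least 1 UMI of both genes of a pair (printed; the diagonal gives the cells with each gene) and the share of the row gene's cells that hold the column gene (colour, %). Shared cells fill the block of 4 left genes and the block of 6 right genes, with 119 cells for gcy-7 and gcy-14 and 216 for gcy-19 and gcy-22, and at most 15 cells off these blocks.

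The pairs were also counted across the whole atlas. Among all 151415 cells, 155 held at least 2 left genes, and 151 of these (97.4%) were labelled ASEL and 0 ASER. At least 2 right genes were held by 321 cells, of which 295 (91.9%) were labelled ASER and 1 ASEL. Just 1 cell, labelled ASEL, held at least 2 of each. The sets of left and right genes rest on levels in labelled cells, and the labels may rest on the same counts, so this is a description and no check of the labels. The counts were chosen after the values of the genes had been seen.

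How many cells showed a gene depended on depth. gcy-7 was counted in 62.6% of ASEL cells, and in 79.0% and 90.7% after cells were thinned to 500 and to 1000 UMIs and shallower cells left out, which kept 124 and 75 ASEL cells. gcy-14 was counted in 57.0%, 62.9% and 74.7%, gcy-6 in 32.5%, 25% and 49.3%, and gcy-20 in 27.2%, 21.0% and 48%. In ASER, gcy-19 was counted in 45.6% of cells and in 53.0% and 76.6% after thinning, which kept 364 and 188 cells. gcy-22 was counted in 34.2%, 40.9% and 65.4% and gcy-3 in 18.5%, 19.2% and 33.5%. gcy-5 was counted in 5.84%, 6.04% and 12.8%, gcy-4 in 3.35%, 2.20% and 6.91%, and gcy-1 in 0.974%, 0.549% and 2.13%. Over all libraries, the same genes were counted in at most 0.0931% of 10737 body wall muscle cells. These cells had a median of 2610 UMIs and should lack these genes. In several libraries most of these genes were listed at 0 in every cell, such as 8 of them in both libraries of flp-7 neurons. Any muscle cell there could not show those genes. The share is therefore no background level for the libraries that hold most ASE cells.

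gcy-19 was counted in 6.04% of ASEL cells, 8.87% after thinning to 500 UMIs and 5.33% after thinning to 1000. gcy-22 was counted in 1.89%, 1.61% and 4%. In single cells the highest counts were 31 UMIs of gcy-7, 25 of gcy-22 and 20 of gcy-19, each in a cell of the gene's own side.

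Outside ASE, levels were set against all 178 other classes. Classes with at least 50 CPM and 10 UMIs of a gene were counted as detecting it. gcy-1, gcy-3, gcy-6, gcy-7, gcy-14, gcy-19 and gcy-20 were detected in 0 other classes, gcy-4 and gcy-5 in 1 each and gcy-22 in 7. The counts depend on the level asked for: at 20 CPM gcy-22 had 11 classes, gcy-19 2 (RIH and ASH) and gcy-7 1 (ADL), and at 100 CPM gcy-22 had 3. The share of a gene's UMIs that lay in ASE cells was 96.0% for gcy-14, 92.5% for gcy-7, 90.9% for gcy-1 (10 of 11 UMIs), 89.7% for gcy-3, 85.5% for gcy-6, 70.2% for gcy-19 and 67.2% for gcy-20. It was 43.0% for gcy-4, 35.1% for gcy-22 and 20.8% for gcy-5. These shares, and the numbers of classes, depend on which classes the sorts collected. They also depend on libraries where a gene was listed at 0 in every cell. Of 16 libraries these were 14 for gcy-1, 13 for gcy-3, 12 for gcy-4, 10 for gcy-5 and 10 for gcy-14. They were 9 for gcy-7, 7 for gcy-6, 6 for gcy-20 and 1 each for gcy-19 and gcy-22. A class collected mainly in such libraries could not show the gene, so 0 classes does not mean absence.

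**Figure D4:**
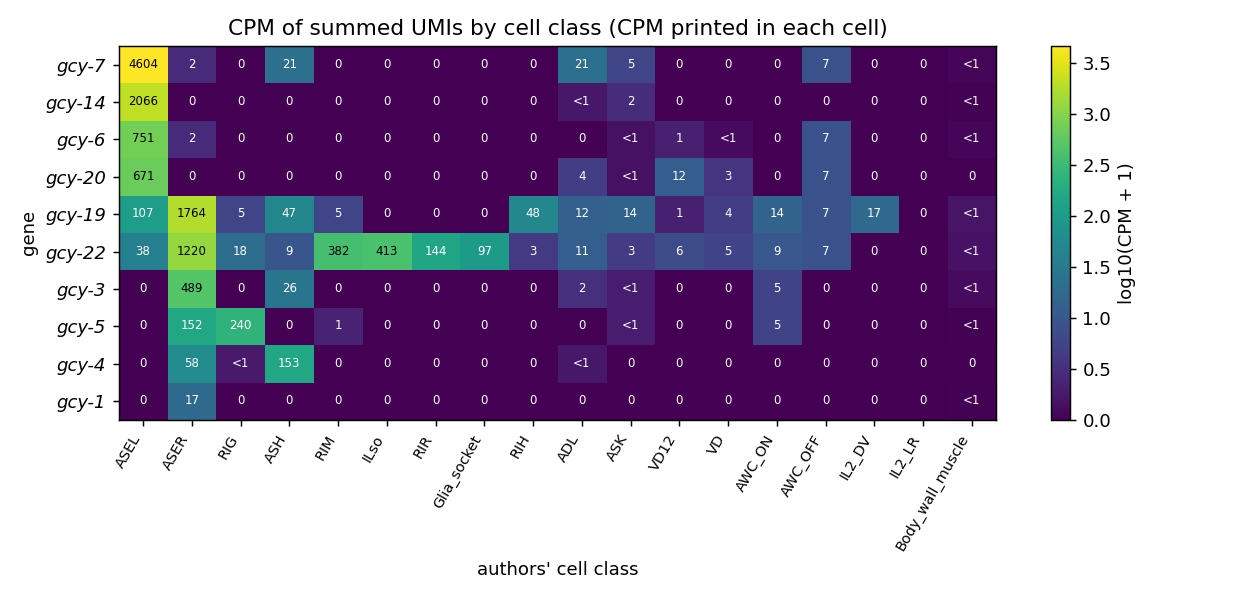
Level of each gene (rows) in ASEL, ASER and chosen other classes of the authors' annotation (columns), as CPM of summed UMIs printed in each cell and coloured by log10(CPM + 1). Outside ASE the highest values are gcy-22 in ILso (413) and RIM (382), gcy-5 in RIG (240) and gcy-4 in ASH (153).

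gcy-5 was high in RIG, a pair of ring interneurons. RIG stood at 240 CPM (299 UMIs, 213 to 268), above ASER at 152 CPM (122 to 187) and without overlap of the intervals. The order was not the same within libraries. In the eat-4 sort RIG stood at 174 CPM (101 to 279) and ASER at 121 CPM (76.7 to 181), with overlap. In pan-neuronal replicates 1 and 2 RIG stood at 60.6 CPM (1 UMI) and 169 CPM (68.1 to 349), below ASER at 769 CPM (439 to 1248) and 850 CPM (555 to 1245). RIG also stood at 279 CPM in a sort of command interneurons (strain NC3581, otIs708 and rhIs2, 12 to 16 h) and at 248 CPM (217 to 283) in the library of unc-4c, ceh-2 and acr-2 strains, so it held gcy-5 in each of 5 libraries. In the last of these gcy-5 was at 0 in 12 ASER cells, with an upper limit of 234 CPM that overlaps RIG.

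gcy-4 was high in ASH, the nociceptive amphid neuron. ASH stood at 153 CPM (36 UMIs, 107 to 212) and ASER at 58.1 CPM (40.2 to 81.2). In the sensory sort the levels were 178 CPM (110 to 272) in ASH and 55.0 CPM (32.0 to 88.1) in ASER, without overlap. In the eat-4 sort they were 119 CPM (57.0 to 219) and 89.4 CPM (52.1 to 143), which overlapped. The unc-86 sort added 2 UMIs in 13 ASH cells. The 36 UMIs lay in 31 ASH cells.

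gcy-22 was the gene with the most classes outside ASE. Its level in RIM, the tyraminergic interneuron, was 382 CPM (312 UMIs, 341 to 427), and 8 libraries with at least 10 RIM cells lay between 232 and 574 CPM. In ILso, the socket glia of the inner labial sensilla, it was 413 CPM (22 UMIs in 7 cells, 259 to 625), which overlapped the interval of RIM. Then came RIR at 144 CPM (85.5 to 228), Glia_socket at 97.1 CPM (61.6 to 146), PQR at 77.1 CPM (62.3 to 94.2), M2 at 54.8 CPM (26.3 to 101) and I4 at 50.4 CPM (27.6 to 84.6), where each interval overlapped that of the next class. ASER at 1220 CPM lay above all of them. In each of 6 libraries with 10 or more cells of both, ASER stood above RIM, at 971 to 3609 CPM against 232 to 574 CPM. The unc-86 sort, with 5 ASER cells of 3842 UMIs in all, held no gcy-22 UMI in ASER and 25 in RIM. The overlapping gene T03D8.6 had 20 UMIs in RIM of the command interneuron sort, where gcy-22 had 162.

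Lower levels of gcy-19 were found in RIH (48.2 CPM, 30 UMIs), ASH (46.8 CPM), ASK (13.9 CPM) and ASJ (13.7 CPM). Of the 30 UMIs in RIH, 23 came from the unc-86 sort. A further 6 and 1 came from replicates 1 and 2 of the P-lineage sort at 21 to 24 h. Of the 11 UMIs in ASH, 10 came from the eat-4 sort. In the IL2 neurons gcy-19 stood at 16.7 CPM in IL2_DV (6 UMIs) and at 0 in IL2_LR. gcy-7 had 29 UMIs in ADL (20.7 CPM) and 10 UMIs in ASK that all lay in 1 cell (4.81 CPM). gcy-20 stood at 11.6 CPM in the motor neuron class VD12 (21 UMIs) and 2.61 CPM in VD (19 UMIs). The libraries with at least 10 VD12 cells were sorts of P-lineage progenitors and neurons at 15.5 to 18.5 h and at 21 to 24 h. Age and sort there differ from those of most ASE cells. gcy-1, gcy-3, gcy-6 and gcy-14 had no other class with 10 UMIs.

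ASE cells were also compared with all other neurons of the same library in 7 libraries (edgeR, as above). Of 5384 genes tested 1795 (33.3%) were called, 485 (9.01%) higher in ASE and 1310 (24.3%) lower. gcy-19 was higher in ASE by 7.76 on the log2 scale (SE 0.52, edgeR adjusted p = 2.78e-47) and gcy-22 by 5.36 (SE 0.50, adjusted p = 8.27e-25). The other 8 genes did not pass the filter. Without it edgeR's adjusted p was between 2.14e-07 for gcy-6 and 0.00128 for gcy-5, all 8 higher in ASE. gcy-19 and gcy-22 may have passed the filter through ASE, where they are high. The ASE labels may rest on these same counts. The p-values therefore measure the spread between libraries given the labels, and the directions are no separate support.

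The rest of the pathway was read from lists of genes. Of the 17 other receptor guanylyl cyclase genes, gcy-17 stood apart on the left. It was at 1283 CPM in ASEL (239 UMIs) and 0 in ASER, and in ASEL it was 1115 CPM in the sensory sort, 1413 CPM in the eat-4 sort, 947 CPM in pan-neuronal replicate 1 and 1619 CPM in replicate 2. It was lower in ASER by a fitted -9.87 (SE 0.61, edgeR adjusted p = 5.34e-17), and its next class was the excretory gland cell at 6.08 CPM. gcy-17 too passed the filter on low counts through ASEL alone. gcy-28 (204 and 179 CPM in ASEL and ASER), gcy-9 (53.7 and 68.4 CPM) and gcy-12 (37.6 and 41.0 CPM) had UMIs on both sides and were not tested between them. gcy-13 had 34 UMIs in ASER (58.1 CPM) and 0 in ASEL, and daf-11 12 UMIs and 0. gcy-2, gcy-8, gcy-15, gcy-18 and gcy-23 were at 0 in both. Of 4 genes of this list tested against other neurons, 2 were called, where 33.3% of all genes were. gcy-9 was higher in ASE by 1.48 on the log2 scale (edgeR adjusted p = 0.0183), gcy-11 was lower (-4.95, adjusted p = 3.06e-09) and gcy-12 and gcy-28 were not called.

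**Figure D5:**
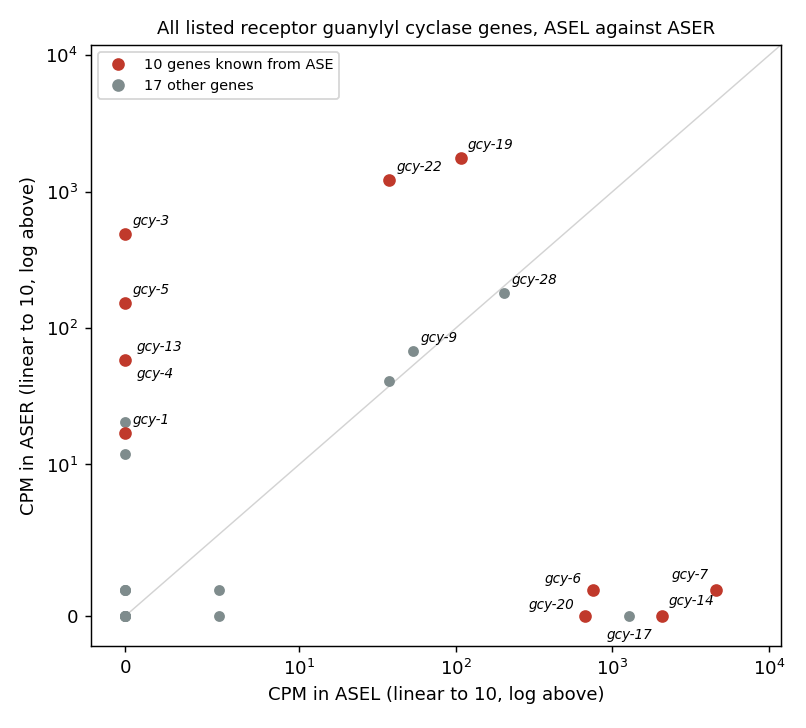
Level in ASEL (horizontal) against ASER (vertical) in CPM, both linear to 10 and logarithmic above, of the 10 genes (red) and 17 other receptor guanylyl cyclase genes (grey); the line marks equality, and gcy-4 and gcy-13 share a point. gcy-17 lies at 1283 CPM on the ASEL axis between gcy-20 and gcy-14, and gcy-28, gcy-9 and gcy-12 lie near the line.

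Of 10 cyclic GMP signalling genes, 8 were tested against other neurons and 3 were higher in ASE. These were the channel subunit gene tax-4 (1.36, edgeR adjusted p = 0.0305) and the phosphodiesterase genes pde-1 (1.33, adjusted p = 0.0058) and pde-5 (2.75, adjusted p = 4.85e-07). tax-2, the partner channel subunit, differed by 0.46 (adjusted p = 0.596). The median of the 8 was 0.68 against -0.51 over all genes tested, and 9.01% of all genes were higher in ASE and 24.3% lower. Between the sides only pde-1 and pde-2 could be tested. pde-1 differed by 0.25 (edgeR adjusted p = 0.515) and pde-2 by 0.17 (adjusted p = 0.722). tax-2 stood at 80.5 CPM in ASEL and 42.7 CPM in ASER, and tax-4 at 80.5 and 39.3 CPM. cng-3, another channel subunit gene, stood at 113 and 25.6 CPM and the kinase gene pkg-2 at 284 and 68.4 CPM, and neither could be tested between the sides.

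Of 12 identity and laterality genes, 11 were tested against other neurons, with 4 higher in ASE, 4 lower and 3 not called, where 9.01% of all genes were higher and 24.3% lower. The homeobox gene ceh-36 was higher by 6.27 (edgeR adjusted p = 3.51e-31), lim-6 by 4.02, the zinc finger gene fozi-1 by 3.01 and hen-1 by 2.75. nsy-7, lsy-2, flp-4 and eat-4 were lower. Between the sides 4 were tested and 3 called, where 26.8% of all genes were called. lim-6, at 0 in ASER, passed the filter on low counts through ASEL alone. The laterality genes die-1, cog-1, fozi-1 and nsy-7 did not pass it, so this number is no support. lim-6 (-10.16, edgeR adjusted p = 7.42e-18) and the neuropeptide gene flp-20 (-4.33, adjusted p = 3.08e-14) were lower in ASER. hen-1, a secreted protein gene, was higher by 2.34 (adjusted p = 6.59e-07), and ceh-36 was not called at -0.47 (adjusted p = 0.224). fozi-1 stood at 5.37 CPM in ASEL and 156 CPM in ASER but was not tested.

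Across the 180 classes, the genes whose levels were most like each of the 10 were ranked by Pearson's r of log2(CPM + 1). The values describe classes that share libraries and are carried by few classes. gcy-17 came first for all 4 left genes, with r = 0.88 for gcy-14, 0.80 for gcy-20, 0.79 for gcy-7 and 0.75 for gcy-6. Among the left genes themselves r ran from 0.69 (gcy-6 and gcy-7) to 0.78 (gcy-7 and gcy-14). After gcy-17 came C04F6.7 for gcy-7 (0.75), fbxa-215 for gcy-14 (0.72) and for gcy-20 (0.64), and C08E8.6 for gcy-6 (0.65).

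On the right, gcy-1 was most like C08E8.5 (0.72), which stood at 872 CPM in ASER and 0 in ASEL, and gcy-3 was most like nhr-52 (0.68). gcy-1 and gcy-3 had r = 0.77 with each other. gcy-4 was most like srz-46 (0.65), srm-4 (0.64) and srh-84 (0.64), genes at their highest in ASH and at 0 in both ASE neurons. gcy-5 was most like icmt-1 (0.45), gcy-19 like nlp-76 (0.56) and gcy-22 like grl-14 (0.52), the next gene beside it in the WBcel235 annotation. grl-14 stood at 167 CPM in ASER, 5.37 CPM in ASEL and 188 CPM in ILso. In the same annotation gcy-6, gcy-7, gcy-14, gcy-20 and gcy-22 lie on chromosome V and the other 5 on chromosome II, where 1 gene, gcy-2, lies between gcy-1 and gcy-3, and ZK970.8 lies between gcy-4 and gcy-5.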

How the data were processed

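Libraries were sequenced from sorted cells on the 10x Genomics platform, per the labels. The authors deposited 1 matrix of UMI counts, whole numbers that were not normalized. Cell Ranger 6.0.0 is named in the submitters' processing notes. Not given in the sources used here are the genome build, filters on cells and genes, background correction and the method behind the class labels. Names of library, tissue and class per cell (unit other) were used as the authors deposited them. One name of the annotation, left over after all others had matched, was taken for the P-lineage sort at 11 to 14 h.

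UMIs were summed per class and library and divided by the class total (CPM), with exact Poisson intervals, exact conditional binomial intervals for ratios and exact Clopper-Pearson intervals for shares, all 95%. A side at 0 was set to a floor of 3 UMIs for bounds. Libraries with 10 or more cells on both sides were summed per side and tested with edgeR 4.0.16 (limma 3.58.1, R 4.3.3; TMM, filterByExpr, library as a block, adjusted p under 0.05). Standard errors were taken from the log2 difference and the F statistic. Alternatives were DESeq2 1.42.0 and its size factors, no filter on low counts, at least 5 or 20 cells, no block, cells of at least 500 UMIs and each library left out. Cells are not replicates, and p-values measure the spread between libraries. The fits were also tested on simulated data. For ASE against other neurons, 8% of 2-fold and 62% of 4-fold changes were recovered. For ASER against ASEL, 73% and 89% were. A gene that was not called is therefore not shown to be unchanged. Likeness was ranked among genes with at least 100 UMIs, with a pseudocount of 1 CPM. The WBcel235 annotation was used for neighbouring genes, with 18545 of 18570 gene identifiers matched. Python 3.11.15, numpy 2.4.6, scipy 1.17.1, pandas 2.3.3 and matplotlib 3.10.9 were used.

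The genes, the lists and the tests were chosen with earlier results of these data known. Named were the 10 genes, listed genes that passed a fit with che-1, cog-1, die-1, lim-6, tax-2 and tax-4, the 3 genes most like each, and the 5 classes with the highest level of each among those with 10 UMIs. Other listed genes, T03D8.6, daf-7, the IL2 classes, the muscle marker totals and the shares of muscle cells were named after their values were seen.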

Additional observations from a re-analysis of the deposited data

Results flagged for a closer look

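The level of gcy-3 minus that of gcy-5 in ASER differed between libraries, and this was not tested. It is no balance of the genes where gcy-3 was listed at 0 in every cell. Counts were not scaled to gene length, so the sign of the difference within a library does not rank the genes. gcy-3 minus gcy-5 was 443.4 CPM in the sensory sort, 499.5 CPM in the eat-4 sort and 443.1 CPM in the library of unc-4c, ceh-2 and acr-2 strains. It was -768.7 CPM in pan-neuronal replicate 1 and -849.7 CPM in replicate 2. gcy-3 was at 0 in every cell of the pan-neuronal libraries, so the values there are those of gcy-5 alone. No change of gcy-3 can be read from them. gcy-5 was at 0 in ASER of the library of unc-4c, ceh-2 and acr-2 strains, so the value there is that of gcy-3 alone.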

How the results depend on the processing

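The log2 differences of gcy-6, gcy-7, gcy-14, gcy-19, gcy-20 and gcy-22 kept their direction and their side of the threshold in all 87 values that the alternatives gave, and 0 were reversed. Against other neurons these values covered gcy-19 and gcy-22 only. All settings used the same labels, and the genes entered the left-right fit through their high side, so the directions are no separate support. The number of genes called did not keep its size. For ASER against ASEL it was 154 of 574 tested, and 298 with no filter on low counts, 81 with at least 5 cells a side, 478 with at least 20 cells a side, 44 with no library block, 318 with cells of at least 500 UMIs, and 66 to 251 with a library left out (66 without the sensory sort, 68 without the eat-4 sort, 251 without pan-neuronal replicate 1). DESeq2 called 149 and its size factors in edgeR 151. The number of genes tested changed in these settings too, to 284 with at least 5 cells and 1860 with at least 20. The number of classes that detect a gene moved for gcy-7, gcy-19 and gcy-22 with the level asked for, and for gcy-19 also with cells of at least 500 UMIs. For ASE against other neurons it was 1795, and 3639 with no filter, 1062 with cells of at least 500 UMIs, and 1343 to 2060 with a library left out. Both sides of each comparison came from the same library, and the main fits pair them with library as the block. With replicate numbers as pairs, no paired analysis was possible because no group was compared with another. The limit for gcy-1, gcy-4 and gcy-5 is depth: ASEL held 186346 UMIs, so 3 UMIs are 16.1 CPM.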
